A study of Mus musculus with 14 samples.

Results

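The transcripts of 4 T and NK cell activating cytokines were followed in dendritic cells sorted from melanomas. The set was chosen by name as Il12a and Il12b (the 2 chains of IL-12), Il15 with its presenting receptor chain Il15ra, Il18 with its soluble inhibitor Il18bp, and Il27 with its partner chain Ebi3. Of these 8 genes, 7 were measured among the 21205 genes of the count table, and Il12a was not analysed here. The cells were type 1 conventional dendritic cells (cDC1), sorted one per well from YUMM1.7 melanomas, a mouse melanoma line injected subcutaneously into female mice. A plate held cells of 1 tumour from 1 mouse, so the plate was the replicate, and 555 cells of 14 plates were analysed.

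The groups were 5 plates of Irf1_dXCR1, 4 plates of Irf1_FF, 4 plates of Ikbkb_dXCR1 and 1 plate of Ikbkb_FF. The design text names both FF genotypes as controls, and the labels do not spell out the allele names. Irf1 encodes the transcription factor IRF1, and Ikbkb encodes IKKβ, a kinase of the NF-κB pathway. All Irf1 plates came from one experiment with mice of 6 weeks. The Ikbkb plates came from another, in which the Ikbkb_FF mouse and Ikbkb_dXCR1 mice 1 and 2 were 8 weeks old and Ikbkb_dXCR1 mice 3 and 4 were 6 weeks old. The genotypes of the 2 genes were not compared with each other, since experiment and gene cannot be told apart.

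IL-12 is secreted by dendritic cells as a pair of chains, of which the one encoded by Il12b is shared with IL-23, and it drives interferon-γ production in T and NK cells. IL-15 is held at the cell surface by the chain encoded by Il15ra and presented to neighbouring T and NK cells. IL-18 is made as a precursor that inflammasome caspases cleave, Il18bp encodes a secreted decoy that captures it, and IL-27 pairs the product of Il27 with EBI3, a chain that also takes part in IL-35.

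Upstream sequences are printed for Il12b, Il15ra and Ebi3, the members whose detection differed most between the cell classes described below, because IRF1 and NF-κB bind known DNA motifs. They are the 250 bases before the annotated start from RefSeq (GRCm38.p6), 5′ to 3′ on the gene's strand, at chr11:44399813-44400062 for Il12b, chr2:11705043-11705292 for the first of the Il15ra starts and chr17:55952373-55952622 for Ebi3, all on the plus strand. Capitals mark a motif match.
Il12b: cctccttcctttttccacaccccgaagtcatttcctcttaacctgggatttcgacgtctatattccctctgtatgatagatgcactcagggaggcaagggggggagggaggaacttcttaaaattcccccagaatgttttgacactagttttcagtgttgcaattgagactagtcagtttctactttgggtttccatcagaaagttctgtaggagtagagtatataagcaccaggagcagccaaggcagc
Il15ra: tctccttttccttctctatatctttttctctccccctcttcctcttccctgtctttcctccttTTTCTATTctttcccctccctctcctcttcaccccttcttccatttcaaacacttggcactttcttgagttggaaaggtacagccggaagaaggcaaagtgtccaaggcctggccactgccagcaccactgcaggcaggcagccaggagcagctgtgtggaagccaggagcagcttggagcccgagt
Ebi3: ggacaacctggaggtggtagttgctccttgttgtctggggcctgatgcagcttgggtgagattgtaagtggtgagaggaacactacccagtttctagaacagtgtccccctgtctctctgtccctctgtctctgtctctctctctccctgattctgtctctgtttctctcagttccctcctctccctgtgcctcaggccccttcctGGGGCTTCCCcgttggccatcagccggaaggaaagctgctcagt
Both strands were searched for the interferon response core (GAAA, any 2 bases, GAAA), the shorter IRF motif AANNGAAA, which lies inside the core, and the κB consensus. The Il15ra sequence held 1 IRF motif, 187 to 180 bases before the start on the minus strand, and the Ebi3 sequence held 1 κB match, 44 to 35 bases before it. The Il12b sequence held no match to these patterns in that window, nor did the window before another Il15ra start (chr2:11705462-11705711, not printed). Of 32851 promoter windows of this length, 2.98% held the core, 21.3% the IRF motif and 3.90% the κB consensus. A match is a run of letters and not a measured binding site. A window without a match can still hold a site whose letters depart from these patterns, so the Il12b result does not show that such sites are absent.

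In the GENCODE annotation of GRCm38, whose starts can differ from those of RefSeq, the genes lie at chr11:44400063-44414033 (Il12b, plus strand), chr8:82331632-82403222 (Il15, minus), chr2:11705290-11734317 (Il15ra, plus), chr9:50554827-50581840 (Il18, plus), chr7:102014885-102018690 (Il18bp, minus), chr7:126589010-126594941 (Il27, minus) and chr17:55952640-55957022 (Ebi3, plus). All are annotated as protein-coding.

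Depth was 2810321 to 10120557 UMIs per plate over 18 to 59 cells, and the median cell had 143476 UMIs and 1578 genes. UMIs, which tag single cDNA molecules, had a median of 64 where a gene was found at all, and the largest count in the table was 1024. The plates held between 14.0% and 43.1% Ccr7+ cells, meaning cells with at least 1 UMI of Ccr7, the receptor of migrating mature dendritic cells. There were 170 Ccr7+ and 385 Ccr7- cells. Of the Ccr7+ cells, 36 had only 1 to 9 UMIs of Ccr7 and 134 had 10 or more. The median depth was 132930.5 UMIs in Ccr7+ cells and 148177 UMIs in Ccr7- cells. Sorted cells also held RNA of other cell types: 8.82% of Ccr7+ and 18.2% of Ccr7- cells had 3 or more of 12 macrophage markers, and 24.7% of Ccr7+ and 46.8% of Ccr7- cells had a UMI of the cDC1 markers Xcr1 or Clec9a.

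Each cytokine gene was found in a minority of the cells. At least 1 UMI was found in 21.4% of the 555 cells for Il12b (95% exact Clopper-Pearson interval 18.1% to 25.1%), 21.3% for Ebi3, 19.6% for Il15ra, 14.4% for Il15, 14.1% for Il18bp, 13.2% for Il18 and 8.65% for Il27. Such intervals cover counting error only. The order of these shares is a description, since a gene at low level is missed more often.

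The cells that had a transcript usually had many copies of it. Il12b reached 10 or more UMIs in 82 cells, with a median of 449.5 UMIs among them and 1005 UMIs in the highest cell, close to the largest count in the table. That largest count, 1024, is the number of distinct sequences of 5 bases, the number in the UMI oligo's name in the labels' protocols, and no count exceeded it. If the UMI had that length, counts near 1024 understate the molecules; 35 Il12b cells were above 512 UMIs, against 8 for the other 6 genes together. The effect on the Il12b counts and CPM ratios was not tested. The other 6 genes reached 10 or more UMIs in 39 to 108 cells, with medians from 95 to 141 UMIs. Il12b also differed in how its low counts fell: of 40 Ccr7- cells with a UMI, 12 reached 10 or more UMIs and the median was 1 UMI, whereas in 79 Ccr7+ cells the median was 447 UMIs. For Il15 the median cell with a UMI held 86.5 UMIs in both classes, so Ccr7+ cells had the transcript more often but not at a higher count per detected cell.

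**Figure D1:**
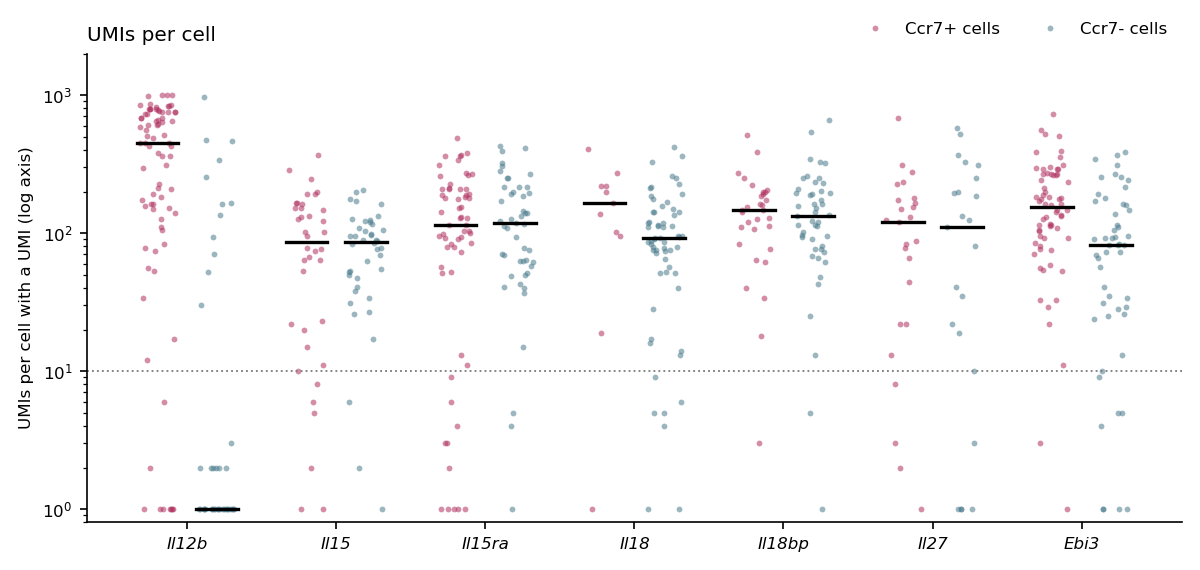
UMIs per cell on a log axis for each gene, with 1 point per cell that had a UMI, Ccr7+ cells left and Ccr7- cells right, a bar at the median and a dotted line at 10 UMIs. The Il12b points lie around 447 UMIs in Ccr7+ cells and mostly at 1 UMI in Ccr7- cells, while both classes lie at similar heights for Il15 and Il15ra.

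The first comparison set Ccr7+ cells against Ccr7- cells of the same plate, in the 13 plates with at least 5 cells of each class. It shows where the cytokine transcripts sat among the sorted cells. Il12b, Il15ra, Ebi3 and Il15 were found in a larger share of Ccr7+ cells, and Il18 in a smaller share. Il18bp and Il27 did not pass the test. All 7 shares were tested by exact sign-flip permutation of the within-plate differences, two-sided and unadjusted; the smallest p that 13 plates allow is 0.000244.

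Il12b, the chain shared by IL-12 and IL-23, was found in 46.9% ± 18.6 of Ccr7+ cells and 11.8% ± 13.5 of Ccr7- cells (mean ± SD over plates, n = 13). The share was higher in Ccr7+ cells in 13 of 13 plates (exact permutation p = 0.000244). Counting cells with 10 or more UMIs, it was 41.2% of Ccr7+ against 3.12% of Ccr7- cells over all plates.

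Il15ra, the chain that presents IL-15, was found in 32.6% ± 13.6 of Ccr7+ and 11.2% ± 11.4 of Ccr7- cells, again higher in 13 of 13 plates (exact permutation p = 0.000244, n = 13). Ebi3 was found in 37.0% ± 16.04 of Ccr7+ and 12.6% ± 5.77 of Ccr7- cells, higher in 12 of 13 plates (exact permutation p = 0.000488, n = 13). Il15 itself was found in 20.3% ± 15.3 of Ccr7+ and 10.6% ± 6.91 of Ccr7- cells, higher in 10 of 13 plates (exact permutation p = 0.0171, n = 13).

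Il18 ran the other way, with 5.88% ± 6.39 of Ccr7+ and 15.7% ± 6.33 of Ccr7- cells, and its share was higher in Ccr7+ cells in 3 of 13 plates (exact permutation p = 0.00562, n = 13). Its inhibitor Il18bp was found in 15.9% ± 14.5 of Ccr7+ and 11.9% ± 10.2 of Ccr7- cells (exact permutation p = 0.378, n = 13). Il27 was found in 12.3% ± 14.1 of Ccr7+ and 6.72% ± 5.41 of Ccr7- cells (exact permutation p = 0.162, n = 13). With every cell thinned to 40000 UMIs, which left out 29 Ccr7+ and 45 Ccr7- cells below that depth, each of the 7 shares stayed on the same side of 0.05.

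**Figure D2:**
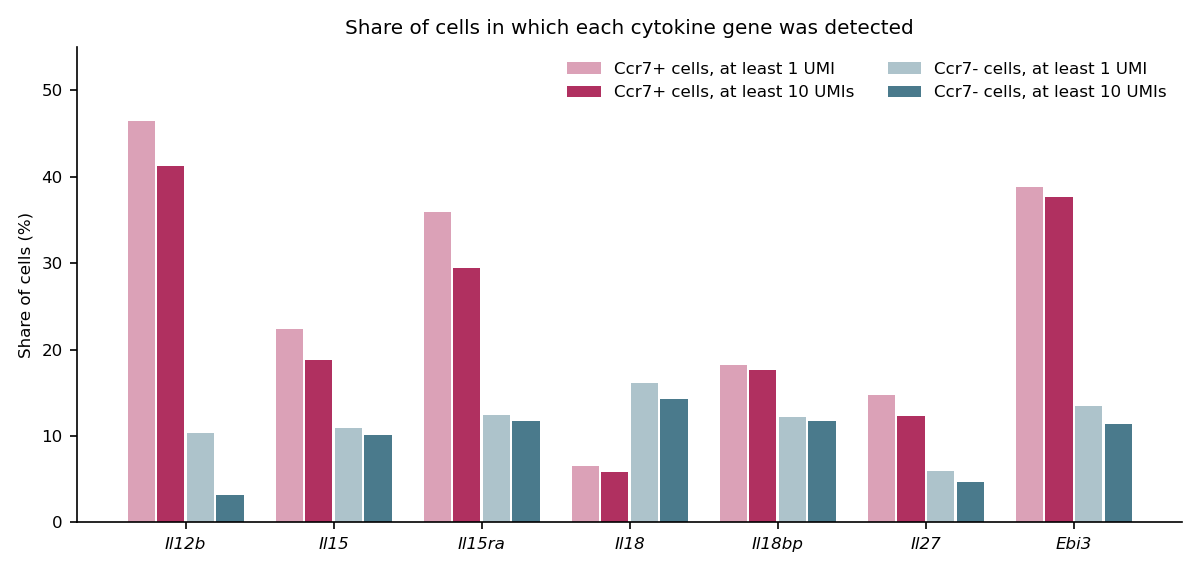
Share of cells, in percent, in which each gene was found at 1 or more UMIs (light bars) or 10 or more UMIs (dark bars), pooled over plates, for 170 Ccr7+ cells (red) and 385 Ccr7- cells (blue). The gap is widest for Il12b at 10 or more UMIs, 41.2% against 3.12%, and Il18 alone has its taller bars in Ccr7- cells.

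Expression levels were compared as CPM, UMIs summed over the cells of a plate and set to a common total. CPM were scaled by TMM factors within each comparison, so a plate's CPM differs slightly between comparisons. Il12b had a lowest, median and highest level of 203, 1200 and 4360 CPM in Ccr7+ cells, against 0, 28.7 and 207 CPM in Ccr7- cells. The lowest Ccr7+ plate lay just below the highest Ccr7- plate, but within each of the 13 plates the Ccr7+ cells were higher. The mean level was 1420 ± 1079 CPM in Ccr7+ cells and 65.1 ± 85.0 CPM in Ccr7- cells, a ratio of 21.8.

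In edgeR's quasi-likelihood test with the plate as a block, Il12b rose in Ccr7+ cells by 7.0 ± 1.39 on the log2 scale (± SE, Benjamini-Hochberg adjusted p = 0.00551). This fitted value averages within-plate differences and depends on the prior count, since 3 plates had 0 UMIs of Il12b in Ccr7- cells. Of the 7 members, 1 was called, against 8.41% of the 13129 genes tested (191 higher and 913 lower, 1.45% and 6.95%). With upper-quartile factors the split was 207 higher of 595 called. The median log2 difference of all tested genes was -1.90, which became -1.48 with upper-quartile factors and -0.61 with DESeq2, and the median of the members was 1.14. Being higher in Ccr7+ cells in every plate was found for 86 genes, 0.413% of the 20831 with a UMI.

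Il15ra had a lowest, median and highest level of 168, 343 and 849 CPM in Ccr7+ cells, against 0, 62.0 and 397 CPM in Ccr7- cells. The classes overlapped, and 12 of 13 plates were higher in Ccr7+ cells; in the exception, Irf1_dXCR1 replicate 5, the levels were 181 CPM in Ccr7+ and 397 CPM in Ccr7- cells. The log2 difference of 2.75 ± 0.89 missed the threshold in edgeR (adjusted p = 0.0573). It passed without that plate (edgeR adjusted p = 0.0446) and in 7 of 24 alternatives, over which the adjusted p ran from 0.000214 to 0.183.

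Ebi3 had a lowest, median and highest level of 0, 611 and 881 CPM in Ccr7+ cells, against 0, 75.05 and 217 CPM in Ccr7- cells. It was higher in Ccr7+ cells in 11 of 13 plates, the exceptions being Irf1_FF replicate 1 with 0 against 20.99 CPM and Irf1_FF replicate 3 with 149 against 208 CPM. The log2 difference of 2.27 ± 0.82 missed the threshold in edgeR (adjusted p = 0.0837), passed without Irf1_FF replicate 1 (edgeR adjusted p = 0.0310) and passed in 9 of 24 alternatives, over which the adjusted p ran from 9.23e-05 to 0.148.

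The remaining genes had lower levels and more plates at 0. Il15 averaged 146 ± 117 CPM in Ccr7+ and 56.9 ± 34.9 CPM in Ccr7- cells, and 8 of 13 plates were higher in Ccr7+ cells (log2 difference 1.14 ± 1.09, edgeR adjusted p = 0.476). Il18 averaged 69.9 ± 94.5 CPM in Ccr7+ and 118 ± 63.1 CPM in Ccr7- cells. It was higher in Ccr7+ cells in 5 of 13 plates and had no UMI in the Ccr7+ cells of 6 plates. Its log2 difference of -4.50 ± 2.28 did not pass in edgeR (adjusted p = 0.194), although it did in 3 of 24 alternatives. This fitted Il18 value depends on the plates at 0 and on the prior count, and the ratio of the mean levels was 0.59.

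Il18bp averaged 162 ± 191 CPM in Ccr7+ and 136 ± 136 CPM in Ccr7- cells (log2 difference 0.04 ± 1.12, edgeR adjusted p = 0.992). Il27 averaged 152 ± 201 CPM in Ccr7+ and 67.8 ± 87.0 CPM in Ccr7- cells (log2 difference -0.21 ± 1.53, edgeR adjusted p = 0.946). Both were higher in Ccr7+ cells in 6 of 13 plates, and the fitted Il27 value changed sign in 12 of 24 alternatives. In such sums, fewer cells with a transcript and fewer copies per cell cannot be told apart, which is why the shares above are given beside them.

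**Figure D3:**
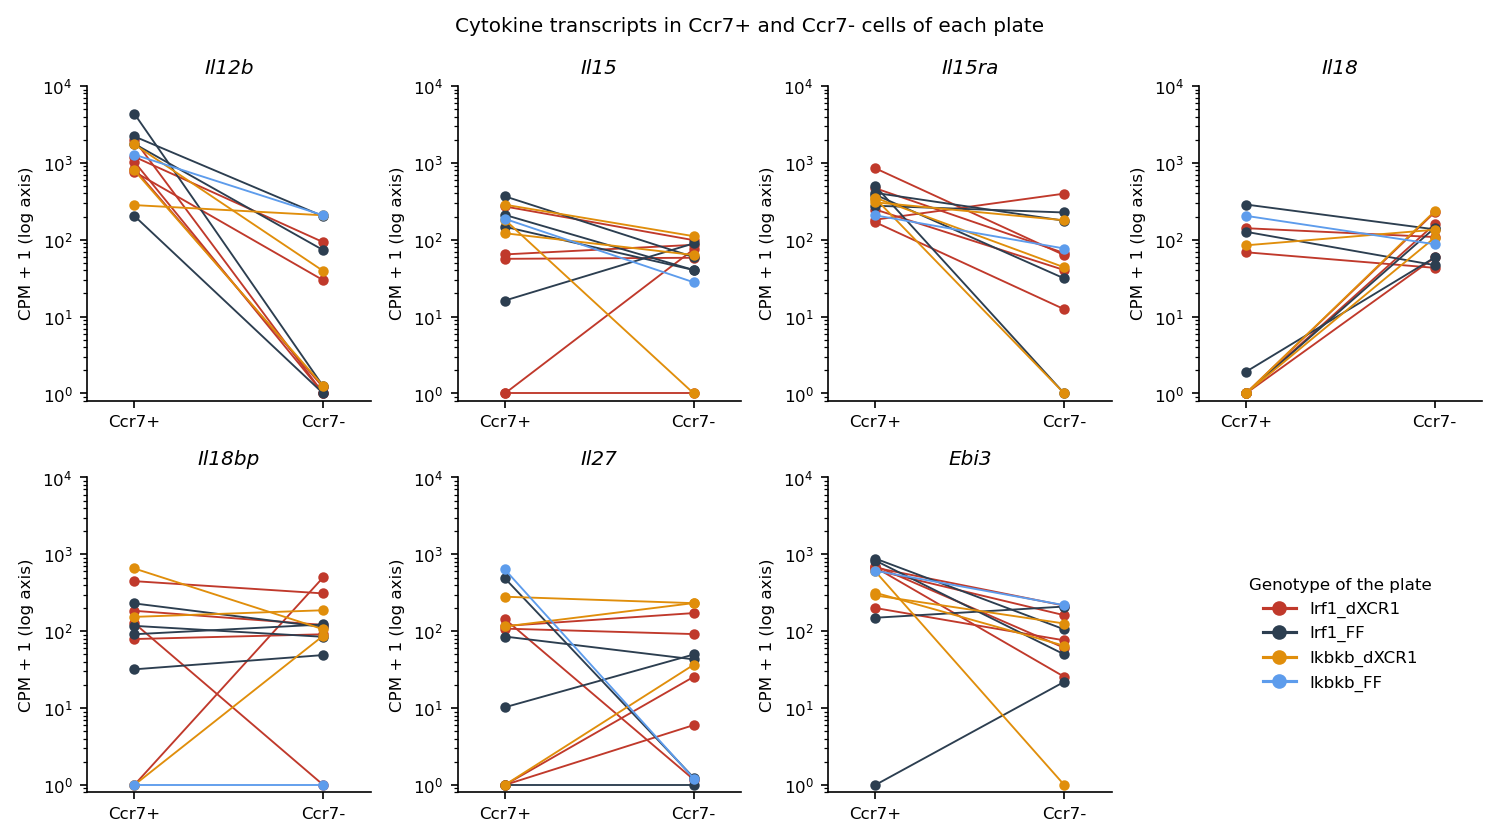
Level of each gene (CPM + 1, log axis) in the Ccr7+ cells (left) and Ccr7- cells (right) of 13 plates, with 1 line per plate coloured by genotype. For Il12b all 13 lines slope down to the right, for Il15ra 12 and for Ebi3 11, while the lines of Il18bp and Il27 cross.

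Markers of other cells moved with the same split, in which 1.45% of all genes tested were called higher and 6.95% lower. The summed level of 20 maturation genes had a median of 14292 CPM in Ccr7+ and 2647 CPM in Ccr7- cells and was higher in 13 of 13 plates, where 14 of 19 tested genes rose, among them Cd83 (edgeR adjusted p = 2.97e-08) and the chemokine Ccl22 (edgeR adjusted p = 4.22e-05). That of 15 cDC1 markers was 6349 CPM against 9279 CPM and higher in 0 of 13, with 3 genes lower (Naaa, Rab7b and Ppt1). Summed over 12 macrophage markers it was 713 CPM in Ccr7+ and 1612 CPM in Ccr7- cells, and over 9 fibroblast and endothelial markers 121 CPM against 1504 CPM, both higher in 3 of 13 plates; 6 of the 9 fibroblast and endothelial genes fell. The Il12b difference was as large without the cells that had 3 or more macrophage markers (log2 7.03 ± 1.40, edgeR adjusted p = 0.00469). Against only those Ccr7- cells that had a UMI of Xcr1 or Clec9a, the fitted Il12b value was 11.21 ± 0.77 (edgeR adjusted p = 4.63e-10). Of those 180 cells, 2 reached 10 or more Il12b UMIs, so the size of this value rests on few cells. The Ccr7+ cells were not restricted in this way, and 24.7% of them had either marker. Without the macrophage-marker cells, Ebi3 (3.01 ± 0.93, edgeR adjusted p = 0.0488) and Il18 (-7.31 ± 1.97, edgeR adjusted p = 0.0266) passed too. Before that removal Il18 was found in 11 of 170 Ccr7+ cells, so the size of its value rests on few cells. Against the Ccr7- cells with Xcr1 or Clec9a, Il15ra passed (7.09 ± 1.55, edgeR adjusted p = 0.00917). Of those 180 cells, 9 reached 10 or more Il15ra UMIs, against 36 of the 205 Ccr7- cells left out, so this size rests on few cells as well. The part of the fibroblast and endothelial markers in these values was not tested.

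The Ccr7- cells were split by the cDC1 markers. Il18bp reached 10 or more UMIs in 2.22% of the 180 Ccr7- cells that had a UMI of Xcr1 or Clec9a, and in 20.0% of the 205 that had neither. Il15ra was split in the same way, with 5.00% against 17.6%. Il18 was split in the opposite way, with 19.4% of the cells with Xcr1 or Clec9a and 9.76% of the others. For Il15 the shares were 12.8% and 7.80%, for Ebi3 10.0% and 12.7%, for Il12b 1.11% and 4.88%, and for Il27 4.44% and 4.88%. Among all cells, Il18bp reached this level in 31.8% of the 85 cells with 3 or more macrophage markers and in 10.2% of the rest. These are shares of cells and were not tested.

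The sort recorded 3 protein stainings for 458 cells of 12 plates. MHC class II, which presents antigen to CD4+ T cells, had a mean of plate medians of 10.1 ± 0.75 in Ccr7+ and 8.79 ± 0.65 in Ccr7- cells on the inverse hyperbolic sine scale, higher in 12 of 12 plates (exact sign-flip permutation p = 0.000488). XCR1 staining was 8.31 ± 0.89 in Ccr7+ and 8.08 ± 0.76 in Ccr7- cells (exact permutation p = 0.265, n = 12), and CD64, a macrophage Fc receptor, was 1.94 ± 5.27 against 5.17 ± 3.39 (exact permutation p = 0.0557, n = 12). Cells with 10 or more Il12b UMIs had a median MHC class II signal of 9.74, against 8.83 in cells with none. This signal was 9.88 against 8.91 for Il27 and 9.51 against 8.76 for Ebi3, and it was lower only for Il18bp (8.90 against 8.97). Of all 82 cells with 10 or more Il12b UMIs, 70 were Ccr7+, so the Il12b difference is not separate from that between the classes. Cells with 10 or more Il18bp UMIs had a median CD64 signal of 7.15, against 5.82 in cells with none, and a median XCR1 signal of 7.33 against 7.99. These medians by gene pool the stained cells of all plates and both classes and were not tested. Of all 75 cells with 10 or more Il18bp UMIs, 18 came from Irf1_dXCR1 replicate 1 and 0 from Ikbkb_FF. The part of the plate in these medians was not tested.

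Genes known to act with these cytokines were followed as lists. Of 20 tested partners and receptors, 3 were higher and 1 was lower in Ccr7+ cells, with a median log2 difference of -0.23 beside -1.90 for all genes. Over all genes tested, 1.45% were called higher and 6.95% lower. Il2rg, the common γ chain of the IL-2 and IL-15 receptors, averaged 854 ± 245 CPM in Ccr7+ and 350 ± 208 CPM in Ccr7- cells (edgeR adjusted p = 0.00433). Il2ra, the α chain of the IL-2 receptor, averaged 99.9 ± 79.0 CPM against 5.16 ± 9.06 CPM (edgeR adjusted p = 0.0200), and Il23r, the IL-23 receptor chain, 32.5 ± 46.2 CPM against 0.543 ± 1.96 CPM (edgeR adjusted p = 0.0374). Il23r was sparse and was higher in Ccr7+ cells in only 6 of 13 plates. Ifngr1, a chain of the interferon-γ receptor, fell to 169.7 ± 160 CPM in Ccr7+ cells, against 465 ± 112 CPM in Ccr7- cells (edgeR adjusted p = 0.00836).

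The signalling partner of IL-15, Il2rb, was close to absent, with 8.75 ± 31.6 CPM in Ccr7+ and 7.74 ± 15.1 CPM in Ccr7- cells. The IL-12 receptor chain Il12rb2 averaged 87.5 ± 93.6 CPM in Ccr7+ and 14.2 ± 17.8 CPM in Ccr7- cells, which did not pass (edgeR adjusted p = 0.294). Il23a, the chain that makes IL-23 with the Il12b product, averaged 0 CPM in Ccr7+ and 0.738 ± 2.66 CPM in Ccr7- cells and was not tested.

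Of 29 tested genes that process or control these cytokines, 5 were higher and 1 was lower in Ccr7+ cells. Their median log2 difference was -0.04, beside -1.90 for all genes, of which 1.45% were called higher and 6.95% lower. Stat4, which signals below the IL-12 receptor, averaged 664 ± 270 CPM in Ccr7+ and 32.4 ± 53.1 CPM in Ccr7- cells (edgeR adjusted p = 0.00130). Irf1 averaged 528 ± 204 CPM against 165 ± 83.9 CPM (edgeR adjusted p = 0.00156). Cd40, the receptor through which T cells stimulate IL-12 production, averaged 1022 ± 405 CPM against 177 ± 134 CPM (edgeR adjusted p = 0.00246), and Nfkb2, an NF-κB subunit, 332 ± 152 CPM against 100.2 ± 55.6 CPM (edgeR adjusted p = 0.0133). Casp1, the protease that cleaves the IL-18 precursor, averaged 61.5 ± 64.7 CPM in Ccr7+ and 102 ± 38.4 CPM in Ccr7- cells (edgeR adjusted p = 0.220).

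Several cytokine genes were found in the same cells. At 10 or more UMIs, 25.3% of Ccr7+ cells had none of the 7 genes, against 54.8% of Ccr7- cells, and 28 Ccr7+ and 13 Ccr7- cells had exactly 3. The IL-27 chains were together in 14 Ccr7+ cells, where the product of their shares within plates gave 8.80 cells: 14 of 21 cells with Il27 also had Ebi3, and 14 of 64 cells with Ebi3 had Il27. Il15 and Il15ra were together in 16 Ccr7+ cells (10.1 from the product), which was 32% of the 50 cells with Il15ra. Il12b and Ebi3 were together in 35 Ccr7+ cells (27.3 from the product), and Il18 and Il18bp in 0 of 10 and 30. These counts pool cells of few plates and were not tested. The product of shares leaves out that the cells of a plate differed in depth, and the part of depth was not tested.

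**Figure D4:**
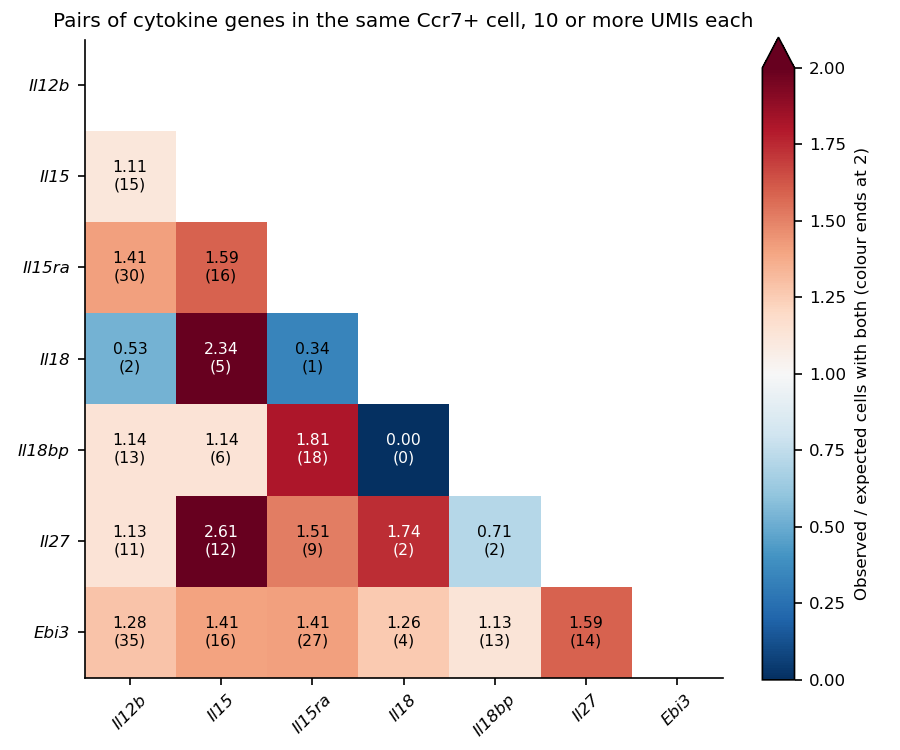
Cells with both genes at 10 or more UMIs among 170 Ccr7+ cells, as observed over expected (colour, upper number) and as observed cells (in brackets), the expected number being the product of the 2 shares within each plate. Most pairs lie above 1, the chains of IL-27 at 1.59 with 14 cells and those of IL-15 at 1.59 with 16 cells. Some pairs of no known complex lie higher, Il15 with Il27 at 2.61 with 12 cells and Il15ra with Il18bp at 1.81 with 18 cells. The Il18 pairs rest on 5 cells or fewer.

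Genes most like each member were named by Spearman's rho of log2(CPM + 1) over the 555 cells among genes found in at least 10% of cells; the cells share plates and depth, so the values are a description. For Il12b these were Ccl22, a chemokine of mature dendritic cells (rho 0.51), Serpinb9, a granzyme B inhibitor (0.50), and Samsn1 (0.50). For Ebi3 they were Ccl22 (0.40), Cd40 (0.38) and Swap70 (0.38). For Il15ra they were Cd63 (0.45), its near-identical column Cd63.ps (0.45), whose reads may be shared between them, and Fscn1, the actin bundler of mature dendritic cells (0.44). For Il18bp they were the interferon-induced Rtp4 (0.35) and Ifit3b (0.32) and the lysosomal protease Lgmn (0.32). No gene exceeded 0.27 for Il15 or Il18, and Il27 was found in too few cells for the rule.

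The second comparison asked whether the cytokine transcripts differed between Irf1_dXCR1 and Irf1_FF tumours. In Ccr7+ cells none of the 7 genes passed the test, and no group of plates stood clear of the other for Il12b, Il15ra or Ebi3. The targeted gene is given first: Irf1 averaged 228 ± 108 CPM in Irf1_dXCR1 and 342 ± 100.1 CPM in Irf1_FF plates over all cells (edgeR adjusted p = 0.685), and 538 ± 206 CPM against 722 ± 203 CPM in Ccr7+ cells (edgeR adjusted p = 0.998). Where the counted 5′ ends lie relative to the deleted part is not given in the sources used here, so this level may check nothing. Xcr1, a marker of the sort, averaged 133 ± 75 CPM in Irf1_dXCR1 and 372 ± 156 CPM in Irf1_FF plates (edgeR adjusted p = 0.519). Ccr7+ cells made up 29.3% ± 7.84 of Irf1_dXCR1 and 30.7% ± 12.3 of Irf1_FF plates (exact permutation p = 0.849, n = 5 and 4).

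In Ccr7+ cells the Il12b levels were 1063, 1256, 2149, 854 and 782 CPM in the 5 Irf1_dXCR1 plates, against 207, 2314, 1859 and 4502 CPM in the 4 Irf1_FF plates. Irf1_FF held both the highest and the lowest plate, so the groups overlapped. The lowest, Irf1_FF replicate 1, had 6 Ccr7+ cells. The log2 difference was -0.86 ± 0.46 (edgeR adjusted p = 0.386). It was -1.24 ± 0.35 without that plate (edgeR adjusted p = 0.504) and -0.27 ± 0.44 without Irf1_FF replicate 4 (edgeR adjusted p = 1), and with upper-quartile factors, which moved the median of all genes from 0 to 0.70, it was 0.78 ± 0.94.

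The number of genes called in Ccr7+ cells was 0 of 11786 (0.0%) by edgeR, with 1409 at an unadjusted p under 0.05, 125 by DESeq2 and 1 by limma. The number of genes whose Irf1_dXCR1 plates all lay below the Irf1_FF plates was 63 (0.413%), and 46 lay all above (0.301%). None of the 7 members was among them. No member's plates separated over all cells either, where 0.506% of genes lay all below and 0.559% all above, or in Ccr7- cells, where it was 0.355% and 0.48%.

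Il15ra had 876, 488, 266, 171 and 185 CPM in Irf1_dXCR1 Ccr7+ cells, against 281, 521, 404 and 419 CPM in Irf1_FF Ccr7+ cells. The Irf1_dXCR1 plates held both the highest and the lowest level and enclosed all 4 Irf1_FF plates, and the log2 difference was -0.03 ± 0.64 (edgeR adjusted p = 1; 1.84 with upper-quartile factors). Ebi3 had 729, 652, 723, 203 and 691 CPM in Irf1_dXCR1 Ccr7+ cells, against 0, 923, 157 and 857 CPM in Irf1_FF Ccr7+ cells. Again the plates of Irf1_FF lay on both sides, and the log2 difference was 0.31 ± 0.80 (edgeR adjusted p = 1).

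Il15 had 278, 0, 0, 56.5 and 64.9 CPM in Irf1_dXCR1 Ccr7+ cells, against 15.4, 219.5, 385 and 151 CPM in Irf1_FF Ccr7+ cells. The 2 groups overlapped through the highest Irf1_dXCR1 and the lowest Irf1_FF plate, and the log2 difference was -1.27 ± 1.30 (edgeR adjusted p = 0.931). Il18, Il18bp and Il27 ranged from 0 to 143, 461 and 146 CPM in Irf1_dXCR1 plates, and from 0 to 301, from 31.96 to 233 and from 0 to 504 CPM in Irf1_FF plates. Their log2 differences were -1.34 ± 2.11, 0.51 ± 1.29 and -0.98 ± 1.49 (edgeR adjusted p = 1 each).

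**Figure D5:**
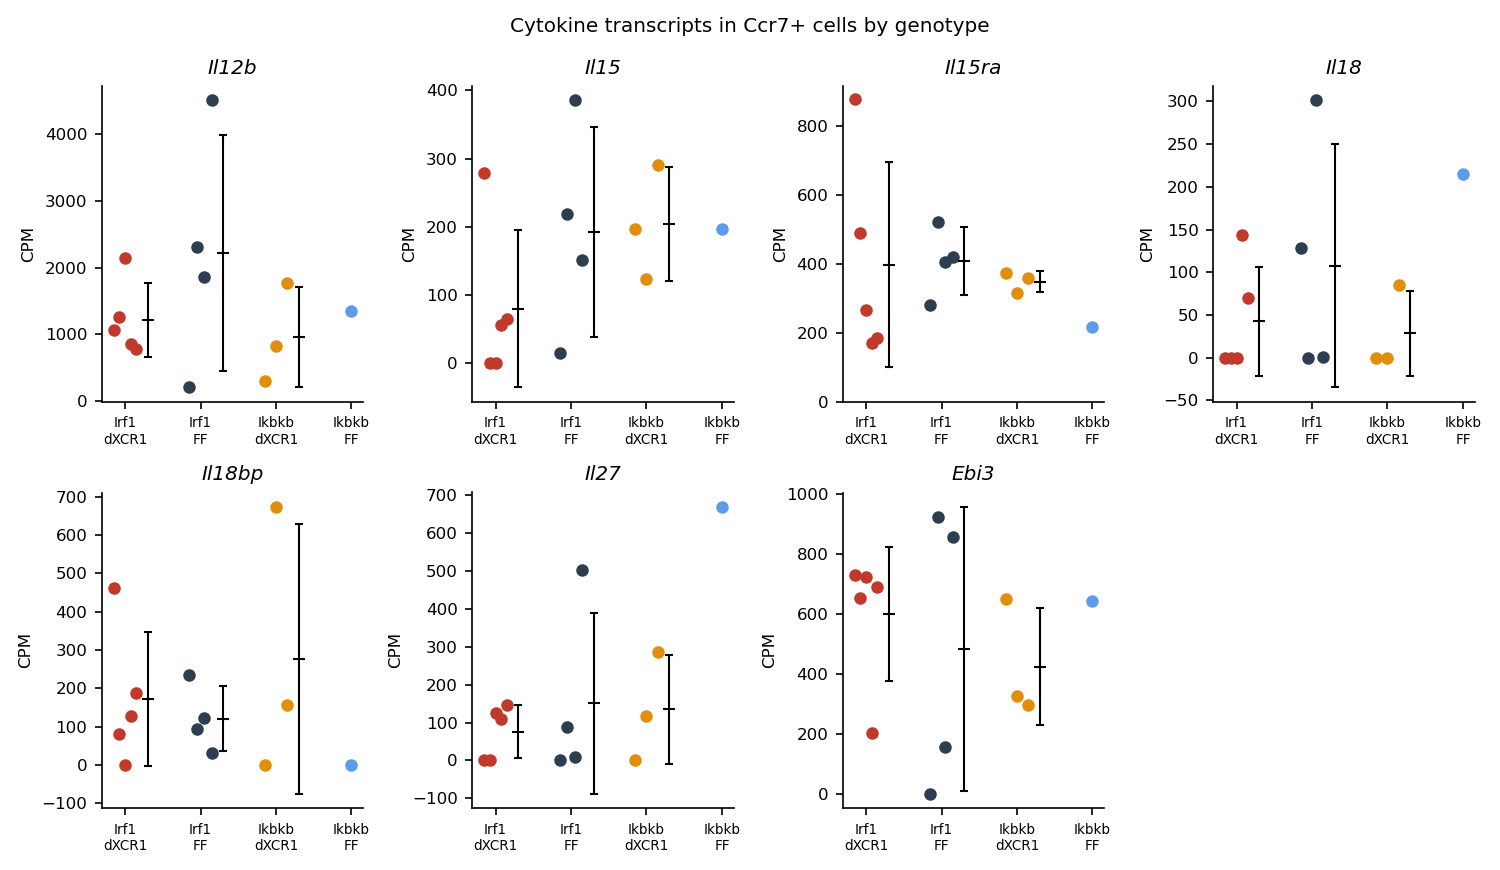
Level of each gene (CPM) in the Ccr7+ cells of each plate by genotype, 1 point per plate, with a horizontal tick at the mean and whiskers of 1 SD where a group has 2 or more plates. The Irf1_dXCR1 points of Il12b lie between 782 and 2149 CPM, inside the range of 207 to 4502 CPM of the Irf1_FF points, and only 1 Ikbkb_FF plate exists.

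Over all cells, Il12b had 273, 289, 628, 240 and 269 CPM in Irf1_dXCR1 plates, against 28.95, 828, 878 and 852 CPM in Irf1_FF plates. All but 1 of the Irf1_FF plates lay above every Irf1_dXCR1 plate, and the exception, Irf1_FF replicate 1, lay below all of them. That plate had 6 Ccr7+ of 43 cells, the lowest share of the 14 plates at 14.0%. Its summed maturation genes in Ccr7+ cells were 7474 CPM. Its summed fibroblast and endothelial markers were 7449 CPM, the highest of the 14 plates, while Irf1_FF replicate 4 had 5400 CPM of them with 852 CPM of Il12b. The part of each in its Il12b level was not tested. The log2 difference of Il12b was -0.93 ± 0.61 (edgeR adjusted p = 0.718), and -1.33 ± 0.36 without Irf1_FF replicate 1 (edgeR adjusted p = 0.690). Il18bp averaged 190.2 ± 148 CPM in Irf1_dXCR1 and 91.8 ± 34.1 CPM in Irf1_FF plates (log2 difference 1.05 ± 0.69, edgeR adjusted p = 0.719).

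Across all cells edgeR called 0 of 16203 genes (0.0%), with 1272 at an unadjusted p under 0.05, and DESeq2 called 100 and limma 0. The other 5 members had an edgeR adjusted p of 1. In Ccr7- cells edgeR called 0 of 15483 genes (0.0%), with 1292 at an unadjusted p under 0.05 94 by DESeq2 and 0 by limma, and all 7 members had an edgeR adjusted p of 1. The difference of the Irf1 effect between Ccr7+ and Ccr7- cells was tested as an interaction, for which edgeR called 0 of 15733 genes (0.0%; 160 at an unadjusted p under 0.05, 160 by DESeq2 and 1 by limma) and gave an adjusted p of 1 for every member.

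Among the shares of cells, none of the 7 differed by the exact permutation test, whose smallest two-sided p for 5 against 4 plates is 0.00794. Il12b was found in 15.7% ± 7.21 of Irf1_dXCR1 and 31.9% ± 23.7 of Irf1_FF cells (exact permutation p = 0.238, n = 5 and 4). At 10 or more UMIs its shares were 11.4% ± 4.45 and 19.0% ± 11.3 (exact permutation p = 0.222, n = 5 and 4). Il15 was found in 10.1% ± 7.03 of Irf1_dXCR1 and 19.6% ± 9.26 of Irf1_FF cells (exact permutation p = 0.119, n = 5 and 4), and Il15ra in 14.8% ± 12.3 against 26.0% ± 5.92 (exact permutation p = 0.151, n = 5 and 4). Leaving out 1 plate brought a p below 0.05 for Il15 (without Irf1_FF replicate 2, difference -12.8 percentage points, exact permutation p = 0.0357) and for Il15ra (without Irf1_dXCR1 replicate 5, difference -16.2, exact permutation p = 0.0286). Ebi3 was found in 23.8% ± 7.31 of Irf1_dXCR1 and 16.8% ± 7.12 of Irf1_FF cells (exact permutation p = 0.254, n = 5 and 4). The differences of Il18, Il18bp and Il27 were 1.22, 5.81 and -1.14 percentage points (exact permutation p = 0.746, 0.437 and 0.714).

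The third comparison set Ikbkb_dXCR1 against the single Ikbkb_FF plate, which is assumed in the fit to vary like the other groups. The members' values in its alternatives were not examined, and in edgeR no member was called in any of its cell classes. There edgeR called 17 genes (0.144%) in Ccr7+ cells, 16 higher (0.136%) and 1 lower (0.00848%) in Ikbkb_dXCR1, and 2 genes (0.0129%) in Ccr7- cells. Over all cells it called 0 of 16203 genes (0.0%), with 707 at an unadjusted p under 0.05, and DESeq2 called 1180 and limma 203. Ikbkb averaged 239 ± 87.8 CPM in the 4 Ikbkb_dXCR1 plates, against 291 CPM in the Ikbkb_FF plate. The Ccr7+ cells of Ikbkb_dXCR1 replicate 2 numbered 4 and were not used.

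In Ccr7+ cells Il12b had 305, 821 and 1776 CPM in Ikbkb_dXCR1 replicates 1, 3 and 4, against 1349 CPM in Ikbkb_FF, which lay within their range (edgeR adjusted p = 0.979). Il15ra had 372, 314 and 358 CPM in Ikbkb_dXCR1 plates, against 218 CPM in Ikbkb_FF, below all of them (edgeR adjusted p = 1). Ebi3 had 649, 325 and 298 CPM against 645 CPM (edgeR adjusted p = 1), and Il27 had 0, 118 and 286 CPM against 669 CPM (edgeR adjusted p = 0.837). The Il27 UMIs of the Ikbkb_FF plate's Ccr7+ cells came from 1 cell of 8.

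Il18bp was the one member with no UMI in the control plate, at 0 of 34 Ikbkb_FF cells, which allows a share of up to 8.82% of cells with a UMI. That limit, set at 3 cells, covers counting error in this 1 plate and neither missed transcripts nor the spread between mice. Over all cells it had 57.3, 48.5, 321 and 168 CPM in the 4 Ikbkb_dXCR1 plates, found in 1 of 18, 2 of 26, 9 of 38 and 8 of 51 cells. It did not pass over all cells (edgeR adjusted p = 0.420). The plates with 321 and 168 CPM, replicates 3 and 4, came from the mice of 6 weeks and had 6 and 22 cells with 3 or more macrophage markers, whereas Ikbkb_FF had 0. Replicates 1 and 2, with 57.3 and 48.5 CPM, came from mice of 8 weeks like Ikbkb_FF and had 0 and 1 such cells. For replicates 3 and 4, age, macrophage RNA and genotype cannot be told apart. The part of each was not tested.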

How the data were processed

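The deposited table holds UMI counts per cell and gene, not normalized by the authors. Wells of 96-well plates received a cell and spike-in RNA each, and 5′ ends were tagged with UMIs, per the labels' protocols. Per the submitters' processing notes, bcl2fastq, STAR 2.5.3a, HTSeq 0.9.1 and GRCm38 were used; their settings, strand use in counting and earlier filters are not stated there. A deposited annotation gives each cell's plate and genotype, which matched the labels for all 555 cells, and staining scores on the inverse hyperbolic sine scale, as the authors recorded them. Its mitochondrial and spike-in values are the authors' fractions of each cell's UMIs and served as quality checks. No cell was removed and no doublet caller was run, since each well received 1 sorted cell; 0 cell names were shared between plates.

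Counts were summed per plate, or per plate and Ccr7 class (at least 5 cells), and tested with edgeR 4.0.16 (filterByExpr, TMM factors, quasi-likelihood F test, threshold 0.05 on Benjamini-Hochberg adjusted p over all genes tested) in R 4.3.3. The Ccr7 comparison blocked the plate, because both classes came from the same tumour. SE is the log2 difference divided by the square root of F. Plates are separate mice; shares used exact permutation tests, with 14 tests in that family given unadjusted. The fit was tested on simulated data. Alternatives were DESeq2 1.42.0, limma 3.58.1, other scalings, filters and cell sets, and leaving out each plate.

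The members and gene lists were chosen with earlier results of these data known, so no p is adjusted over the list alone. Genes named were the members, Ccr7, Irf1, Ikbkb and the sort markers, up to 4 called genes of each list by smallest adjusted p, or the 2 highest where none was called, and the 3 genes most like each member; of these the text gives those with a role in its results; Il2rb, Il12rb2, Il23a and Casp1 were added after their values were seen, for their role.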

Additional observations from a re-analysis of the deposited data

Results flagged for a closer look

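A single plate stood apart from the other plates of its genotype in 5 of 56 groups of 4 or 5 plates examined, by the gap to its nearest neighbour relative to the group's range (Dixon's criterion). Chance alone sets apart about 5% of groups, here 2.8. Over all cells, Il12b was highest in Irf1_dXCR1 replicate 3 at 628 CPM, the others having 240.1 to 289 CPM, and lowest in Irf1_FF replicate 1 at 28.95 CPM, the others having 828 to 878 CPM. In Ccr7+ cells, Ebi3 was lowest in Irf1_dXCR1 replicate 4 at 203 CPM, the others having 652 to 729 CPM. In the same class, Il15 was highest in Irf1_dXCR1 replicate 1 at 278 CPM, the others having 0 to 64.9 CPM. In Ccr7- cells, Il15ra was highest in Irf1_dXCR1 replicate 5 at 362 CPM, the others having 11.3 to 63.6 CPM. The causes were not tested.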

How the results depend on the processing

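Il12b was called higher in Ccr7+ than in Ccr7- cells in all 24 alternatives, with log2 differences from 4.15 to 11.21 and adjusted p from 2.72e-11 to 0.0127 by edgeR, DESeq2 or limma. Without the replicate block, which here is the plate, Il12b had 4.52 (edgeR adjusted p = 0.00429), Ebi3 passed (edgeR adjusted p = 0.0243), Il15ra did not (edgeR adjusted p = 0.114) and 214 genes were called. No paired analysis was possible between genotypes because replicate numbers only name the plates. In Ccr7+ cells no log2 difference of a member between the Irf1 groups was called in any alternative run. Over all cells the same held for Il12b and Il18bp. Alternatives were not followed there for the other members, nor for any member in Ccr7- cells. The 7 shares of Ccr7+ against Ccr7- cells kept their side of 0.05 in all 16 alternatives each.

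Counts of called genes moved by more than 1.5 times, and the causes were not tested. DESeq2 called 3527 genes between Ccr7+ and Ccr7- cells. It called 100, 125 and 94 genes for Irf1 in all, Ccr7+ and Ccr7- cells, 160 for the interaction, and 1180, 1188 and 1139 for Ikbkb in all, Ccr7+ and Ccr7- cells. Upper-quartile factors gave 595 genes for the Ccr7 comparison, 71 for Irf1 and 0 for Ikbkb in Ccr7+ cells. No filter on low counts gave 456 for the Ccr7 comparison, 7 for Irf1 and 43 for Ikbkb in Ccr7+ cells and 7 for the interaction. With limma-trend 203, 172 and 200 were called for Ikbkb in all, Ccr7+ and Ccr7- cells, and 1 each for Irf1 in Ccr7+ cells and the interaction. Ccr7+ set at 10 or more UMIs gave 2716 for the Ccr7 comparison, 4 for Irf1 and 7 for Ikbkb in Ccr7+ cells, and at least 10 cells a class gave 331 for the Ccr7 comparison and 2 for Irf1. Only the genotypes compared gave 59 and 0 for Ikbkb in Ccr7+ and Ccr7- cells. Without cells of 3 or more macrophage markers 11 were called for Ikbkb in Ccr7+ cells and 4 for the interaction, and against Ccr7- cells with Xcr1 or Clec9a 264.

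Leaving out 1 plate gave 421 to 942 genes for the Ccr7 comparison, 421 without Irf1_FF replicate 4, 0 to 8 for Irf1 in Ccr7+ cells, 0 to 9 for the interaction, and 18 to 20 and 0 to 2 for Ikbkb in Ccr7+ and Ccr7- cells.

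Signs turned only in values that had not passed. The Il27 difference between Ccr7+ and Ccr7- cells became 0.58 with upper-quartile factors, 0.60 with limma-trend, 0.28 with cells of at least 500 genes, 0.31 with Ccr7+ at 10 or more UMIs, 0.37 with at least 10 cells, 1.24 without the block, 5.76 without macrophage-marker cells and 3.84 against cells with Xcr1 or Clec9a; leaving out 1 plate gave -0.68 to 0.31. For Il18bp leaving out 1 plate gave -0.32 to 0.38. For Irf1 in Ccr7+ cells, upper-quartile factors gave 0.78 for Il12b and 1.84 for Il15ra, cells of at least 500 genes gave 0.10 for Il15ra, Ccr7+ at 10 or more UMIs gave 0.37 for Il18, and at least 10 cells gave -0.23 for Ebi3. There, leaving out 1 plate gave -0.55 to 0.15 for Il15ra, -0.27 to 1.05 for Il18bp, -1.39 to 1.22 for Il27 and -0.11 to 0.83 for Ebi3. Among the shares of Irf1_dXCR1 minus Irf1_FF cells, Il27 became 0.210 at 10 or more UMIs and 0.309 after thinning. Leaving out 1 plate gave -3.61 to 1.62 for Il27, -0.659 to 3.09 for Il18, -12.8 to -5.34 for Il15, -16.2 to -8.74 for Il15ra, 1.56 to 8.68 for Il18bp and 3.78 to 8.96 for Ebi3. The Il12b difference ran from -24.5 without Irf1_FF replicate 1 (exact permutation p = 0.0536) to -7.49 without Irf1_FF replicate 3, and was -7.32 after thinning.

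Leaving out macrophage-marker cells and taking only Ccr7- cells with Xcr1 or Clec9a were chosen after seeing the data. Alternatives were kept for counts of genes and for the shares of the members. Log2 differences of members were kept for the Ccr7 comparison and, as stated above, for Irf1, but not for Ikbkb or the interaction. None were kept for the other genes named. The interaction with upper-quartile factors, Ikbkb without its control plate and Ikbkb in Ccr7+ cells at 10 or more cells gave no value. The members rest on 39 to 108 cells with 10 or more UMIs, which limits the precision between 4 or 5 plates. No p-value that missed the threshold shows that groups were alike.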

Other observations

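Pairs of genes that form no known complex were also found together. At 10 or more UMIs, Il15 and Il27 shared 12 Ccr7+ cells, where the product of their shares within plates gave 4.59, and 6 Ccr7- cells against 2.16. Il15ra and Il18bp shared 18 Ccr7+ cells against 9.97 from the product, and 15 Ccr7- cells against 6.10. Il12b and Il18 shared 2 Ccr7+ cells against 3.78 from the product, and 0 Ccr7- cells against 1.42. These counts were chosen after their values were seen, pool cells of 14 plates and were not tested. Here too the product leaves out differences in depth between cells.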
